A study of Homo sapiens with 4 samples.

Results

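The dense stretch of H3K9me3 on the long arm of chromosome 10 that holds the genes SORCS3 and SORCS1 was described from the broad peaks of U2OS cells, an established human osteosarcoma line. Every peak of either deposited list that touched chromosome 10 from 104000001 to 112000000 (hg19, 1-based) was taken, whatever its width or fold. There were 524 such peaks in list 1 and 589 in list 2, or 1113 of the 591875 peaks deposited in all. The series holds 2 samples of the antibody group (anti-H3K9me3, Abcam ab8898) and 2 input samples, for which no antibody was used. Cells of all 4 samples are labelled U2OS-KRAB-IDR3-TCF3, a name that the labels do not explain, and they were fixed with formaldehyde. The labels do not say whether samples of a group were grown separately. The labels tie list 1 to the input samples and list 2 to the antibody samples, yet every peak name in either list says IP, so neither list was given to a group. The lists are therefore given side by side, no value has a replicate error, and no difference below could be tested. Peak lists hold neither read counts nor RNA levels, so the depth is unknown and the label of the cells was not checked against marker genes.

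H3K9me3 is trimethylation of lysine 9 on histone H3, written by enzymes such as SETDB1 and SUV39H1 and bound by the chromodomain of HP1 proteins, which compact chromatin. Broad domains of the mark are known over satellite repeats, over zinc finger gene clusters and over genes of other lineages that a cell keeps silent. SORCS3 and SORCS1 encode sorting receptors of the VPS10P domain family, which steer membrane proteins between the cell surface and internal compartments and are best known from neurons.

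The promoters of both genes are shown because they lie at opposite ends of their genes: SORCS3 is read towards rising coordinates and SORCS1 towards falling ones. The 250 bases before each gene's start were taken from RefSeq on GRCh38.p14, and their coordinates belong to that build and not to hg19. The SORCS3 stretch is chr10:104641040-104641289 on the plus strand and the SORCS1 stretch is chr10:107164707-107164956 on the minus strand. Capitals mark the dinucleotide CG, which reads the same on both strands.
SORCS3: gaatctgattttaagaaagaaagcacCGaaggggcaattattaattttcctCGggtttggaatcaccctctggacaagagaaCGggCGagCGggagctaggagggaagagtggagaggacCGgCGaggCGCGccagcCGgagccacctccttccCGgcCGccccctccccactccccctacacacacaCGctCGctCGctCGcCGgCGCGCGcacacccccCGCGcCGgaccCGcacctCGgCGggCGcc
SORCS1: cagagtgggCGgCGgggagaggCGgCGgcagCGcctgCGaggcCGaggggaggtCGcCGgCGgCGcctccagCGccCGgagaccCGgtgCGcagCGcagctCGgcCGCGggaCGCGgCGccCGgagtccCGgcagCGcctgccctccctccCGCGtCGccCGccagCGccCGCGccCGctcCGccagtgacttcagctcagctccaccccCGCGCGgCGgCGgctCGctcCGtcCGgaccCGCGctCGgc
The SORCS3 promoter held 27 CG dinucleotides and the SORCS1 promoter 45, against a median of 11 over 35116 promoters of the same length. At least as many were found in 17.7% of these promoters for SORCS3 and in 0.589% for SORCS1. GC content was 66.0% and 82.4%. In the RefSeq gene order of that build, SORCS1 is the next protein-coding gene after SORCS3, with 0 others between them, beside 10 long noncoding RNA genes and 4 pseudogenes. The next protein-coding genes outward were CFAP58 (a cilium and flagellum protein), ITPRIP and GSTO2 (a glutathione transferase) before SORCS3. Beyond SORCS1 they were XPNPEP1 (an aminopeptidase), ADD3 (an adducin of the membrane skeleton) and MXI1 (a repressor that pairs with MAX). Only names and order were used from this table, so none of these neighbours is placed on hg19 here.

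Peaks covered nearly all of a 4 Mb stretch over both genes, and on the SORCS3 side it gave way to a stretch covered less than the median bin of the genome. Peaks less than 10 kb apart were joined into runs, and the run that held both genes is called the domain. In list 1 it began at 105890926 and ended at 110355684 (4.46 Mb, 152 peaks), and in list 2 it began at 106103906 and ended at 110300003 (4.20 Mb, 284 peaks). It ranked 1 by length among the 48289 runs of list 2 and 3 among the 27641 runs of list 1. Within the 4.20 Mb that belonged to the domain in both lists, peaks of list 1 covered 94.0% of the bases and those of list 2 covered 84.7%. Coverage of the flank before it (104000001 to 105890925) was 34.2% in list 1 and 13.9% in list 2. Coverage of the flank after it (110355685 to 112000000) was 79.0% and 61.5%. Over the whole genome, the median bin of 100 kb was covered 45.9% in list 1 and 20.0% in list 2. The domain thus lay far above both its left flank and the median bin in each list, while its right flank lay between. The borders of the domain come from the same peaks, so these differences are a description.

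Of the 80 bins of 100 kb in the stretch, 35 (43.8%) were covered by at least 80% in both lists, which held for 2.32% of the 30334 bins of chromosomes 1 to 22 and X. On chromosome 10 outside the stretch, 45 of 1274 bins (3.53%) were as dense. Among the 41 bins that lay wholly within the domain, 33 were dense, and in the left flank 0 of 18 were. The 2 dense bins of the right flank began at 110500001 and 110900001. The 33 dense bins of the domain included the 2 longest rows of adjoining dense bins in the genome, 16 bins from 108500001 to 110100000 and 14 bins from 106500001 to 107900000. The row next in length, 13 bins, lay on chromosome 5. Across the 41 bins of the domain the covered share was 94.1% ± 5.10 (SD over bins) in list 1, with a range from 80.1% to 100%. In list 2 it was 85.0% ± 9.64, from 60.6% to 97.8%. In list 1, 8 of the 41 bins were covered without a gap, and in list 2 no bin was. In the left flank list 1 covered between 15.5% and 57.1% of each bin and list 2 between 2.49% and 35.1%, below every domain bin. The domain was cut from the same peaks, so this is a description too. Bins of the right flank reached 95.7% in list 1 and 86.8% in list 2, within the range of the domain bins. Across all 80 bins, Pearson's r of the covered shares of the lists was 0.976 and Spearman's rho was 0.936. The bins share a chromosome and adjoin each other, and r is given as a description only.

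**Figure D1:**
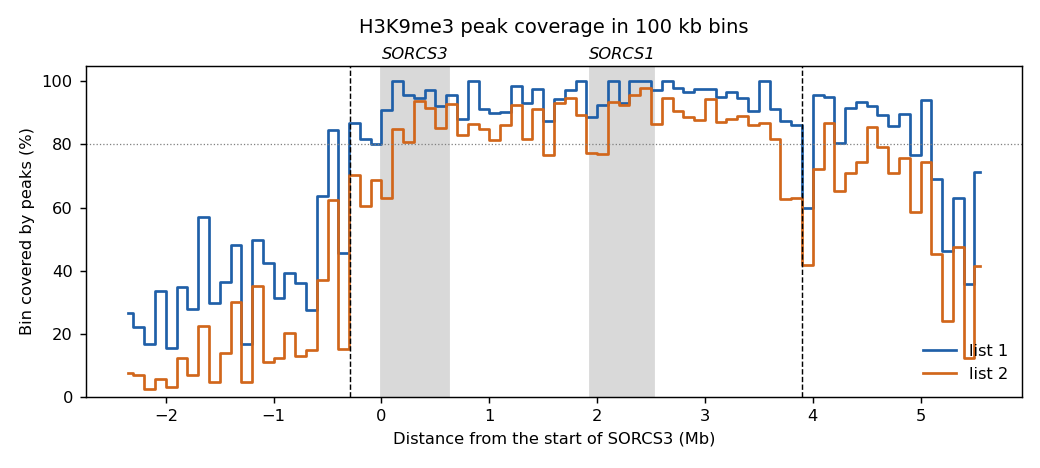
Share of each 100 kb bin covered by H3K9me3 peaks (%, y axis) against the distance of the bin from the start of SORCS3 (Mb, x axis) in list 1 (blue) and list 2 (orange). Grey bands are SORCS3 and SORCS1, dashed lines are the ends of the domain shared by the lists and the dotted line is 80%. Coverage stays between 60.6% and 100% within the domain, dips to 41.9% in list 2 at its right end and rises again beyond.

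Peaks covered most of both genes, and the share was close to that of the stretch between them. The gene bounds, given to 10 kb, were 106400001 to 107030000 for SORCS3 and 108330001 to 108930000 for SORCS1. Peaks covered 94.9% of SORCS3 in list 1 and 83.6% in list 2. They covered 95.8% of SORCS1 in list 1 and 88.4% in list 2. The 1.30 Mb between the genes was covered 94.2% and 87.1%, and the 1.37 Mb from the end of SORCS1 to the right end of the domain 94.9% and 85.1%. The 296 kb ahead of SORCS3 was the least covered part of the domain, at 83.9% and 67.4%. Taken as 1 set, the gene bodies were covered 1.16 percentage points more than the stretch between them in list 1 and 1.19 points less in list 2 (-1.19). These differences had opposite signs, and for bases covered in both lists the value was -0.499. The data thus gave no stable order of gene bodies against the sequence between them.

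Within each gene, coverage was uneven in list 2. Each gene was cut into 4 equal parts, counted from its start. The first part of SORCS3 was covered 69.6% in list 2, against 83.7%, 93.1% and 87.8% in the parts after it. In SORCS1 the order along the gene was 92.0%, 97.3%, 89.6% and 74.8%, so that its last part was the least covered. In list 2 the least covered part of each gene was thus the one at the lower coordinates, which is the start of SORCS3 and the end of SORCS1. In list 1 the parts of SORCS3 differed little, from 93.1% in the last to 96.3%, with 94.3% in the first. Those of SORCS1 ranged from 88.6% in the last to 100% in list 1. The bin from 106400001, which holds the start of SORCS3, was covered 91.1% in list 1 and 63.1% in list 2. The bins from 108300001 and 108400001, over the end of SORCS1, were covered 88.6% and 92.5% in list 1 and 77.2% and 77.1% in list 2. These 3 bins were among the 8 of the 41 domain bins that were not dense. The other 5 were the pair ahead of SORCS3, the bin from 107900001 (87.3% and 76.8%) and the pair from 110100001 at the right end (62.6% and 63.1% in list 2).

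At the gene starts the lists differed, but list 1 also held peaks of lower −log10 p than any in list 2. Of its 524 peaks in the stretch, 199 reached the smallest −log10 p found in list 2 (1.58). Coverage at the gene starts was not measured for these 199 alone, so the cause of the differences was not tested. Within 10 kb on either side of the start of SORCS3, whose CG-rich promoter is printed above, peaks covered 96.7% in list 1 and 63.7% in list 2. Within 10 kb of the start of SORCS1 they covered 94.0% in list 1 and 42.4% in list 2. At SORCS1, list 2 had a peak-free stretch of 8349 bp from 108921028 to 108929376, the fourth widest of the 283 gaps of list 2 in the domain. List 1 left only 1200 bp uncovered there, from 108926545 to 108927744. The widest gap near the start of SORCS3 lay upstream of it in both lists. It spanned 106380069 to 106385383 in list 1 (5315 bp) and 106378968 to 106385921 in list 2 (6954 bp). Because the gene bounds are given to 10 kb and no hg19 annotation was used, whether the printed promoters themselves lie in a peak or in a gap was not tested.

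Peaks of the domain were wider at the median than those of either flank in each list, and the widest lay in SORCS1. In list 1 the widest peak of the stretch ran from 108611154 to 108926544, within SORCS1 by gene bounds that are given to 10 kb only. It was 315 kb wide with a fold of 2.24 over the peak caller's background and a −log10 q of 0.670, and ranked 3 by width among 326674 peaks. Peaks of list 2 covered 95.8% of it, in 6 pieces. The next in list 1 ran from 109879787 to 110069590 (190 kb, fold 2.07), beyond SORCS1, and from 108138919 to 108327844 (189 kb, fold 2.10), ahead of SORCS1. In list 2 all 3 of the widest peaks of the stretch lay within SORCS1. They spanned 108802158 to 108921027 (119 kb, fold 2.61), 108610313 to 108692982 (82.7 kb, fold 2.58) and 108489986 to 108554213 (64.2 kb, fold 2.56). The first of these ranked 10 by width among 264919 peaks. The median peak width in SORCS1 was 34142 bp in list 1 (8 peaks) and 11437 bp in list 2 (24 peaks). In SORCS3 it was 29243 bp (19 peaks) and 4802 bp (50 peaks), and between the genes 20160 bp (35 peaks) and 9093 bp (81 peaks).

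Peaks of at least 25 kb made up 51 of the 122 peaks centred in the domain in list 1 (41.8%, Wilson 95% interval 33.4 to 50.7%) and 46 of 284 in list 2 (16.2%, 12.4 to 20.9%). Over chromosomes 1 to 22 and X, such peaks were 1.75% of list 1 and 0.582% of list 2. The intervals cover counting error only, and neighbouring peaks are not independent. In the left flank 0 of 242 peaks of list 1 were as wide (Wilson 95% interval 0 to 1.56%), and 0 of 117 in list 2 (0 to 3.18%). In the right flank 15 of 129 (11.6%) and 6 of 168 (3.57%) were. Wide peaks supplied 87.2% of the covered bases of the domain in list 1 and 51.7% in list 2. In SORCS1 they supplied 98.5% and 78.3%. The median width rose from 1520 bp in the left flank to 15805 bp in the domain in list 1, and from 1333 to 7031 bp in list 2. The number of peaks moved differently in the lists, as list 1 held 128 peaks per Mb in the left flank and 29.1 in the domain, and list 2 held 61.9 and 67.7. The higher coverage of the domain thus went with wider peaks in both lists, with fewer of them in list 1 and about as many in list 2.

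Fold enrichment set the domain apart less than width did, though folds had a floor in each list. The lowest fold in the stretch was 1.44 in list 1 and 1.90 in list 2. In list 1 the lower quartile of the left flank sat at that floor. The median fold of the peaks centred in the domain was 2.04 in list 1 (quartiles 1.82 and 2.15), against 1.61 in the left flank and 1.81 in the right flank. In list 2 it was 2.39 (2.24 and 2.53), against 2.13 and 2.22. The median over chromosomes 1 to 22 and X was 1.64 in list 1 and 2.12 in list 2, so the left flank lay near it. By base, the covered bases of the domain bins had a mean fold of 2.11 ± 0.0719 (SD over 41 bins) in list 1 and 2.48 ± 0.0832 in list 2. Those of the 18 left flank bins had 1.82 ± 0.153 and 2.40 ± 0.235, a difference within the spread of the flank bins in list 2. Within the domain the highest bins lay in or next to SORCS1. In list 1 the 4 bins from 108600001 to 109000000 ranged from 2.24 to 2.25, and in list 2 the bin from 108700001 reached 2.65. A peak has 1 fold for all its bases, and the 315 kb peak of list 1 (fold 2.24) reached into all 4 of these bins. Bins that share a wide peak are thus not separate readings, and the SD over bins is no measure of error.

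The 3 peaks of highest fold in each list lay outside the domain. The 3 highest of list 1 all fell in the left flank. The first ran from 105621565 to 105627295 (fold 2.77), the next from 104563026 to 104565140 (fold 2.60) and the third from 104359032 to 104359363 (fold 2.60), which had no partner in list 2. The 3 highest of list 2 fell there too, from 105848124 to 105857706 (fold 3.33), from 104980629 to 104986339 (fold 3.32) and from 105484546 to 105486503 (fold 3.22). They were between 332 and 9583 bp wide. Each peak has 1 fold and 1 q-value for all its bases. Peaks of the domain had a median width of 15805 bp in list 1 and 7031 bp in list 2. By base, the mean fold of the domain bins was higher, 2.11 against 1.82 in the left flank bins of list 1. In list 2 it was 2.48 against 2.40, within the spread of the flank bins. Peaks ranked by fold or q thus give no order of flank and domain by base, and the part of width was not tested. Of the 11 peaks of the stretch in list 1 above the 99th percentile of fold of that list, 2 lay in the domain. In list 2, 1 of 8 did. The domain held 122 of the 523 peaks centred in the stretch in list 1 and 284 of 589 in list 2. By definition about 1% of each whole list lies above that percentile. The counts are small, and no difference in share was tested. In the stretch, 0 peaks of list 1 had a q-value of 0.05 or less, against 0.19% of all its peaks on chromosomes 1 to 22 and X. In list 2, 16 of 589 did (2.72%), against 2.07% over the same chromosomes. Of these 16, 11 were among the 117 peaks of the left flank (9.40%) and 3 among the 284 of the domain (1.06%). With −log10 q of at least 2, only the peak from 105848124 in list 2 was left.

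**Figure D2:**
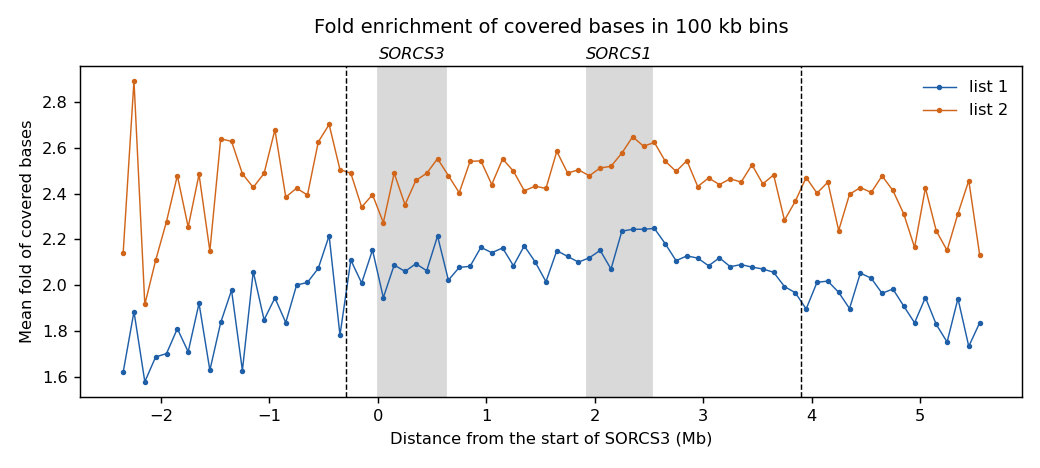
Mean fold of the covered bases (y axis) in each 100 kb bin against its distance from the start of SORCS3 (Mb, x axis), list 1 in blue and list 2 in orange. Grey bands are the genes and dashed lines the ends of the domain. List 2 reaches 2.89 in the left flank, in a bin covered 6.9% by 3 peaks. Its highest domain bin, 2.65 in SORCS1, is covered 95.8%.

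The left border parted stretches of different coverage in both lists, while the right border was a short break inside a longer stretch of high coverage. By the measure of dense bins the sides of the right border still differed, as 33 of 41 domain bins and 2 of 16 right flank bins were dense. In list 2 the first peak of the domain began at 106103906, after a peak-free gap of 40.2 kb that followed a peak of 676 bp. Over the 1 Mb inside this border peaks covered 79.6%, and over the 1 Mb outside 22.5%. In list 1 the border lay 213 kb further out, at 105890926, behind a gap of 15.4 kb, with 85.6% inside and 38.8% outside. The zone between these borders was covered 64.8% in list 1 and 36.9% in list 2. It held the bin from 105900001, covered 84.5% and 62.5%, followed by the bin from 106000001, covered 45.5% and 15.0%. In both lists a bin of low coverage thus followed a more covered one, and list 1 peaks were joined across it while those of list 2 were not.

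On the right, the domain ended at 110355684 in list 1, before a gap of 10.9 kb, and at 110300003 in list 2, before a gap of 12.2 kb. Both gaps were just above the joining distance of 10 kb. Over the 1 Mb inside the right border peaks covered 91.1% in list 1 and 82.7% in list 2, and over the 1 Mb outside 88.8% and 72.3%. Beyond the break a second run followed, 1.27 Mb long in list 1 (110366541 to 111635482) and 1.24 Mb in list 2 (110366122 to 111609876). It ranked 17 by length in list 2 and 188 in list 1. The bases in both of these runs were covered 87.9% in list 1 and 71.9% in list 2, with a median width of 8009 and 4182 bp and a median fold of 1.85 and 2.28. Beyond the second run, up to 112000000, coverage was 55.5% and 32.0%. When peaks less than 25 kb apart were joined, the run of list 2 kept its left border at 106103906 and reached to 111623383 (5.52 Mb). The run of list 1 then took in most of the stretch, from 104443648 to 112343433 (7.90 Mb). With 3 kb, the longest run over the genes was 0.680 Mb in list 1, from 106456875 to 107136716 over most of SORCS3. In list 2 it was 0.311 Mb, from 108610313 to 108921027 within SORCS1.

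**Figure D3:**
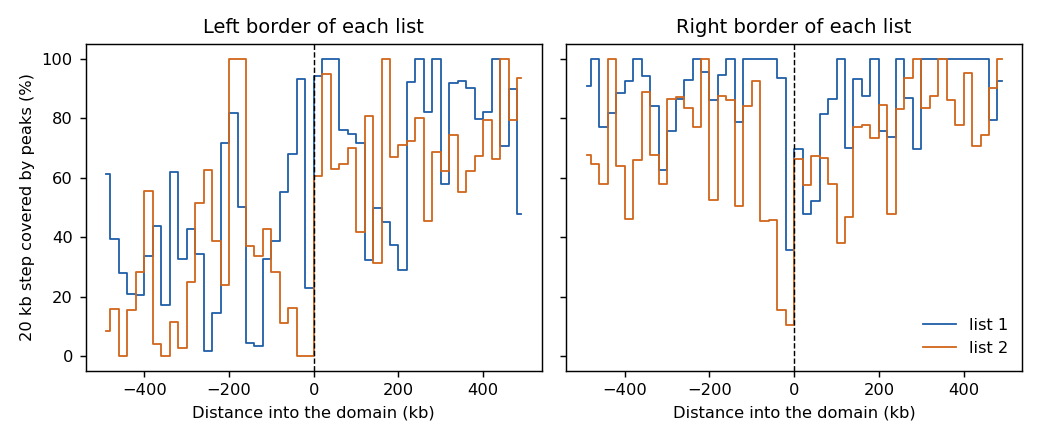
Share of each 20 kb step covered by peaks (%, y axis) against its distance into the domain from each list's own border (kb, x axis; negative values lie outside), left border on the left and right border on the right, list 1 in blue and list 2 in orange. Over 500 kb on each side of the left border, coverage falls from 75.47% inside to 38.95% outside in list 1. In list 2 it falls from 70.05% to 28.49%. At the right border both lists recover beyond a dip.

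Few bases of the domain were left out by both lists. Bases in neither list made up 4.24% of it, against 64.4% of the left flank and 17.7% of the right flank. They fell into 90 stretches with a median of 1498 bp, of which 7 were at least 5 kb. The widest, 7413 bp from 110069591 to 110077003, lay beyond SORCS1 and was the widest gap of list 1 too. It was followed by 6524 bp from 107136717 to 107143240 between the genes, and by 5941 bp from 108381873 to 108387813 and 5919 bp from 108604394 to 108610312, both within SORCS1. The last of these ends where the second widest peak of list 2 begins. List 1 alone had 122 gaps in the domain, 121 of them of at least 1 kb, and list 2 had 283, all of at least 1 kb. The gaps of list 1 summed to 250 kb and those of list 2 to 641 kb. List 2 thus showed the same domain in more pieces.

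Peaks of the lists met in the domain more often than in the left flank. In the domain, 113 of 122 list 1 peaks (92.6%, Wilson 95% interval 86.6 to 96.1%) met a list 2 peak by 1 bp or more. In the other direction 278 of 284 did (97.9%), which left out 6 (2.11%, 0.972 to 4.53%). Over chromosomes 1 to 22 and X, 50.8% of the list 1 peaks and 90.1% of the list 2 peaks had such a partner. In the left flank the shares were 85 of 242 (35.1%) and 103 of 117 (88.0%). Wide peaks meet a partner more easily, and the 9 peaks of list 1 without one in the domain had a median width of 810 bp. Dense coverage by the other list also makes a partner more likely. List 2 covered 84.7% of the domain and 13.9% of the left flank, and list 1 covered 94.0% and 34.2%. The overlap to be had from coverage alone was not computed. Under a reciprocal overlap of 50%, a partner was found for 38.5% of the list 1 peaks and 16.5% of the list 2 peaks of the domain. By base, the Jaccard index, which is the shared length over the length covered by either list, was 0.867 in the domain. It was 0.918 in SORCS1, 0.890 between the genes, 0.845 in SORCS3 and 0.725 ahead of SORCS3. In the left flank it was 0.352 and in the right flank 0.707. Of the parts of the domain, SORCS1 thus had the highest index, and also the highest covered share in each list (95.8% and 88.4%). The index rises with the covered share, so its order was not read as closer agreement of the lists.

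The domain was the longest run of list 2, and its composition was close to that of the run next in length. That run, on chromosome 8 from 138865099.0 to 141286603.0, was 2.42 Mb long and covered 87.5%, with a median width of 8159 bp and a median fold of 2.43. The domain had 84.7%, 7031 bp and 2.39. The third, on chromosome 11, was 1.94 Mb long and covered 76.0% with a median width of 3073 bp. In list 1 the longest run, on chromosome 8, was 5.76 Mb long and covered 92.0%, with a median fold of 2.04. The domain of list 1 was covered 92.1%, with a median fold of 1.98. Runs of at least 1 Mb numbered 302 in list 1 and 38 in list 2, of which 20 and 5 lay on chromosome 10. No test of these differences was possible with 1 set of values per list.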

How the data were processed

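Chromatin immunoprecipitation of H3K9me3 and input were sequenced from U2OS cells. The submitters' processing notes name bcl2fastq 2.17, Trim Galore 0.6.7, Bowtie2 2.5.0, MACS2 2.2.7.1 and hg19, with no role or order. Cutoff, control, duplicates and pooling are not stated in those notes or the labels. The authors' deposited broad peak lists give each peak's fold ratio, −log10 p, −log10 q and a score, all the authors' values. The score was not used further.

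Peaks on chromosome 10 from 104000001 to 112000000 were taken from each list, and those joined under 10 kb formed runs. Peaks were placed in a segment by their centre, which leaves 523 of 524 in list 1. Named were both genes, their neighbours, the 3 widest peaks and the 3 of highest fold per list, and peaks or gaps at borders. Gaps and peaks near gene starts were named after their values had been seen. Coverage, runs and overlaps were checked on 20 simulated sets, all 20 equal to a base-by-base count. Bins ran over chromosomes 1 to 22 and X up to the last peak. Alternatives are under the closing section. The stretch and its bounds were chosen with earlier results of these data known. Values were not corrected for DNA copy number or mappability, and no hg19 genome was used. Work was done in matplotlib 3.10.9, scipy 1.17.1, pandas 2.3.3 and numpy 2.4.6 under Python 3.11.15.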

Additional observations from a re-analysis of the deposited data

How the results depend on the processing

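No paired analysis was possible because neither list belongs to a sample. A list 1 without its peaks under the smallest −log10 p found in list 2 (the limited list 1) was added after seeing the data. With −log10 q of at least 2 no peak lay in the domain, so length and overlap had no value there. The domain was 4.46 Mb long in list 1 and 4.20 Mb in list 2. Under each alternative, the longest run that touched the sequence from SORCS3 to SORCS1 was measured, whether or not it held both genes. This run was 0.680 and 0.311 Mb long with a joining distance of 3 kb, and 7.90 and 5.52 Mb with 25 kb. With peaks above the median fold it was 2.11 Mb in list 1, from 107956528, and 1.70 Mb in list 2, from 108473342. For the limited list 1 it was 1.73 Mb, from 108338446. Each of these runs began beyond the end of SORCS3 (107030000). They thus did not hold both genes, and neither did the runs at 3 kb. Each alternative changed either the peaks kept or the joining distance, and the cause of the changes in length was not tested further.

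The domain exceeded its flanks by 39.0 percentage points in list 1 and 48.7 in list 2. The differences were 45.9 and 51.4 for peaks above the median fold, 49.3 and 52.9 for peaks of at least 5 kb, 49.2 in both for bases in both lists, 30.2 and 38.0 with flanks of 1 Mb, and 54.3 for the limited list 1. Fold-weighted coverage gave 0.538 and 0.756, in fold minus 1 per base. With −log10 q of at least 2 it was 0 in list 1 and turned to -0.271 in list 2, from 1 peak in the left flank.

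The genes minus the stretch between them gave 1.16 in list 1 and -1.19 in list 2. The values were 1.97 and -3.73 for peaks above the median fold, 1.78 and -4.29 for peaks of at least 5 kb, and 1.88 for the limited list 1. For bases in both lists the value was -0.499, which turns list 1, and fold-weighted coverage gave 0.0316 in list 1 and turned list 2 to 0.000141. With −log10 q of at least 2 both were 0. The cause of these turns was not tested.

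Dense bins numbered 35, between 32 and 46 for 5 alternatives, 14 at 90% covered and 0 with −log10 q of at least 2. The overlap of peaks in the domain (92.6% of list 1 and 97.9% of list 2) was 38.5% and 16.5% with a reciprocal 50%, and 100% and 91.9% with the limited list 1. Depth is unknown and limits every value.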
